A study of Bos taurus with 48 samples.

Results

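Gene expression in the longissimus muscle of the back was compared between 25 and 30 months of age in the same 8 cattle. The members were the 4 arrays labelled 25 months and the 4 labelled 30 months, 8 of the 48 arrays of the series, and they held 16 of its 96 channels and 8 of its 35 animals. Each array was a 2-colour Agilent array on which RNA of 1 animal labelled with Cy3 was hybridised beside RNA of a second animal labelled with Cy5. The animals came from 2 crosses that the labels name Piedmontese and Wagyu and that the study describes as crosses with Hereford cattle, so they are written here as Piedmontese × Hereford (4 animals) and Wagyu × Hereford (4 animals). The Piedmontese is a heavily muscled breed and the Wagyu a breed known for fat deposited within its muscle. Every array carried 1 animal of each cross at 1 age, and the same 4 pairs of animals met again at the second age with their dyes exchanged. The muscle was cut out with a scalpel and frozen at once in liquid nitrogen, and no agent or diet group is attached to either age.

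Each animal gave 1 sample per age, so age and anything else that differed between its 2 samplings cannot be told apart. The 25-month arrays lay at slide positions 1 and 3 and the 30-month arrays at positions 2 and 4, so age and position cannot be told apart either. Pairs 1 and 2 were on the first slide and pairs 3 and 4 on the second. The 2 animals of a pair shared their arrays, so the pair of arrays, of which there were 4, was the independent unit of the age comparison. All levels below are log2 intensities after normalization, in which a difference of 1 is a doubling, and levels are not compared between genes. Between 52.9% and 66.5% of the probe spots of a channel were well above background at 25 months, against 59.9% to 69.5% at 30 months. Of the 9 skeletal muscle fibre markers measured, all were kept by the filter on dim probes and none passed the test for age. Their summed level ran from 19.57 to 19.97 at 25 months and from 19.22 to 20.00 at 30 months, so the labelled tissue was present in every sample.

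Skeletal muscle burns glucose and fatty acids and shifts between them with nutrition, hormones and work. Entry of long-chain fatty acids into mitochondria passes through the carnitine palmitoyltransferases, which malonyl-CoA inhibits, while the pyruvate dehydrogenase kinases shut the entry of glucose carbon into the citric acid cycle. Several genes of this switch, PDK4, ANGPTL4, UCP3 and CPT1A among them, are known targets of the PPAR family of fatty acid sensing nuclear receptors. The probes behind the results that follow are 60-base oligonucleotides whose sequences are in the deposited array files, and the first 30 bases of each are given in lower case for the genes with the largest changes in fuel use, oxygen carriage and cold response.
PDK4: tccagaaatttctgattgtcctttgctttc
ANGPTL4: gtgctgtgagtcagctggcgcccacggcgt
MLYCD: gaacttcatagcagagaacaagtttgttct
UCP3: gattgtggtcttcagtgctttgtcttaaga
CPT1A: gtctgaatttgttatgttggactggccatt
HBA: cctggagcccccttgcgctctgcgcactct
HBB: actgctgaggagaaggctgccgtcaccgcc
HBG: aggctagctttcagaaggtggtgactggtg
RBM3: ccacctctccaaatgactgtatttataaag
CIRBP: ctgggcgacccacagtccccaagaggttct
The 3 globin probes shared no run longer than 6 bases with each other, and neither did the probes of RBM3 and CIRBP. Probes were compared only with probes, so whether a probe also binds the transcript of another gene was not tested.

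Of 12890 genes tested, 1168 (9.06%) were higher at 30 months and 1141 (8.85%) were lower at an adjusted p under 0.05 (limma on 1 difference per animal, Benjamini-Hochberg adjustment over all genes). Of the calls 50.6% were rises, but 94.8% were when each channel was only centred on its median, a scaling that moved the median of all genes by 0.63 on the log2 scale against -0.0025 here. Of 68 falls among the genes chosen to be named, 39 stood above 0 under that scaling, 22 stood below 0 without passing the test and 7 were called. A direction given below is therefore relative to the other genes of the array. Median centring did not move all genes alike. The median over the cytosolic ribosomal protein genes went from 0.05 to 1.09, and that over the cell cycle genes from -0.19 to -0.025. A place above or below 0.63 under that scaling is therefore a description and does not show a relative rise or fall. Changes over 1 on the log2 scale were found for 55 genes that rose and 46 that fell. In 793 of the genes that rose and 739 of those that fell, the change had the same direction in all 8 animals. The 8 values at 30 months lay wholly above the 8 values at 25 months in 194 genes (1.51% of those tested) and wholly below them in 159 (1.23%). Without array pair 1, 2 or 4 the total of 2309 calls dropped to 1049, 1051 and 1143. All 2309 genes kept their direction in each case, but they had been called on those same arrays, so this is no independent check. With the 2 animals of a pair averaged, which leaves 4 values, 1847 genes were called, and these held 1658 of the 2309. The changes of any 2 animals correlated across genes with r between 0.24 and 0.67 (median 0.42 over 28 pairs of animals), where genes are not independent and the paired animals share arrays.

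The largest rise was that of PDK4, the pyruvate dehydrogenase kinase that restrains the oxidation of glucose. Its level was 8.20 to 11.77 (median 9.78) at 25 months and 13.82 to 15.04 (median 14.06) at 30 months. All 8 animals rose, by 2.61 to 5.67 on the log2 scale, and the highest animal at 25 months lay below the lowest at 30 months. The mean change of 4.21 ± 0.33 (SE of the limma fit, 8 animals in 4 array pairs, as for every change below) was a rise of 18.5-fold, with an adjusted p of 0.000179. ANGPTL4, a secreted inhibitor of lipoprotein lipase, read 9.77 to 11.85 (median 10.85) at 25 months and 12.70 to 14.19 (median 13.56) at 30 months. The ages did not overlap, and the rise was 2.55 ± 0.19 on the log2 scale, or 5.87-fold, with an adjusted p of 0.000139.

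**Figure D1:**
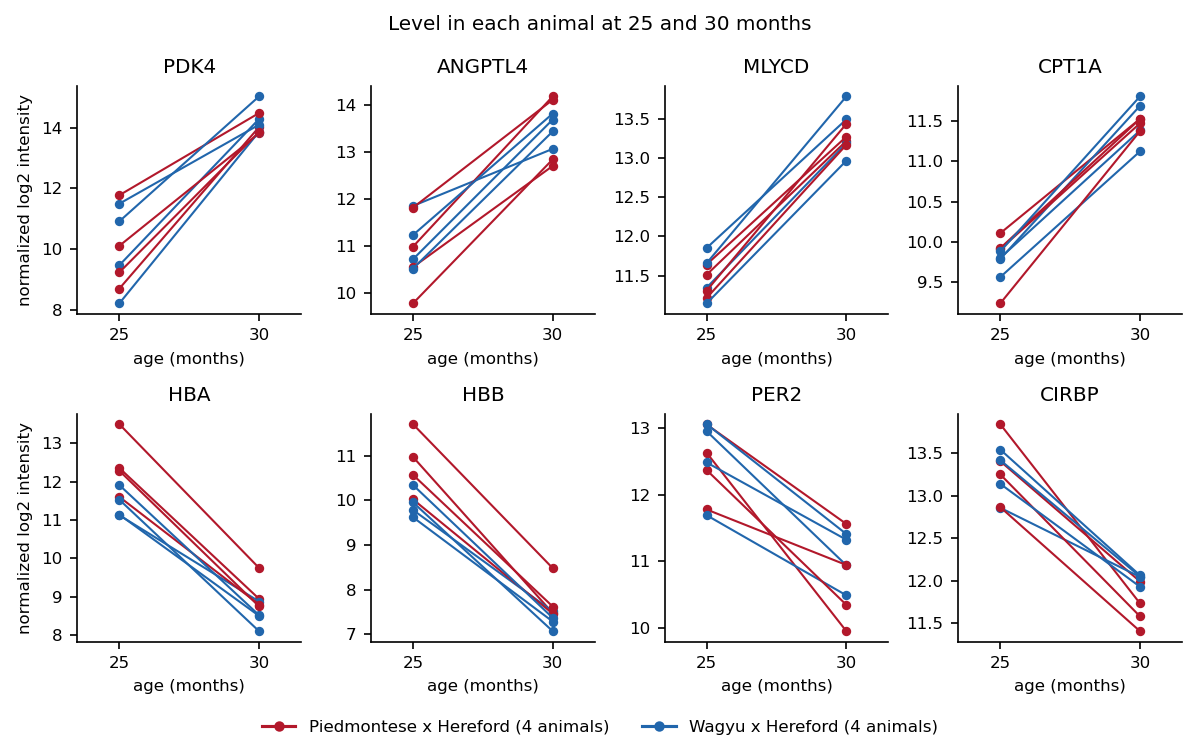
Normalized log2 intensity (vertical axis) of 8 genes at 25 and 30 months (horizontal axis), with 1 line for each of the 8 animals, coloured by cross. PDK4, ANGPTL4, MLYCD and CPT1A rise in every animal, and HBA, HBB, PER2 and CIRBP fall in every animal, which was a condition for choosing them.

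MLYCD, CPT1A, CPT1B and UCP3 rose beside PDK4. MLYCD, the decarboxylase that removes malonyl-CoA, had the smallest adjusted p of all genes tested, 8.01e-06. Its level was 11.14 to 11.85 (median 11.43) at 25 months and 12.97 to 13.79 (median 13.25) at 30 months, without overlap, and the rise of 1.86 ± 0.08 was 3.64-fold. CPT1A, the carnitine palmitoyltransferase best known from liver, went from 9.24 to 10.11 (median 9.84) at 25 months to 11.13 to 11.81 (median 11.50) at 30 months. Every animal rose by at least 1.42, and the mean of 1.71 ± 0.09 was 3.28-fold (adjusted p = 2.24e-05). CPT1B, the muscle form of the same enzyme, rose less, by 0.80 ± 0.08 or 1.74-fold (adjusted p = 0.000398), from a median level of 12.70 to 13.45, with overlap between the ages. UCP3, the uncoupling protein of skeletal muscle, went from 11.68 to 13.59 (median 13.03) to 14.53 to 14.96 (median 14.76). The UCP3 ages did not overlap, and the rise was 1.81 ± 0.19 (adjusted p = 0.000549).

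Of the 26 listed genes of fatty acid uptake and oxidation, 24 were measured, 12 of these rose and 1, the dienoyl-CoA reductase DECR1, fell. Those were 50% and 4.17% of the list, against 9.06% and 8.85% of all genes. The DECR1 call was lost without array pair 2, 3 or 4 (adjusted p = 0.112, 0.08 and 0.0745), and under median centring DECR1 stood at 0.67, above the 0.63 of all genes. The list's median change was 0.38, against -0.0025 over all genes tested. The mean over the list rose in each animal, by 0.49 to 0.84. Beside the genes already described, SLC25A20, the carnitine shuttle carrier, rose by 0.44 ± 0.06 (adjusted p = 0.00137), and ACADVL, the dehydrogenase that opens the oxidation of very long chains, by 0.58 ± 0.08 (adjusted p = 0.00254). Neither gene had values that overlapped between the ages. ACOT2, a mitochondrial thioesterase, rose by 1.13 ± 0.24 (adjusted p = 0.0119), and FABP3, the fatty acid binding protein of muscle and heart, by 0.73 ± 0.14 (adjusted p = 0.00826). The ACOT2 call was lost without array pair 1 or 2 (adjusted p = 0.0602 and 0.0536), and that of FABP3 without pair 1 (0.0745). The rises were not shared by every enzyme of the spiral. ACAA2, the mitochondrial thiolase, changed by -0.03 ± 0.08 and CPT2, the inner membrane palmitoyltransferase, by 0.40 ± 0.13, and neither passed the test (adjusted p = 0.794 and 0.0556). PPARA itself changed by -0.05 ± 0.08 (adjusted p = 0.705), and PPARD was too dim to be tested. Of the 13 calls in the list, 7 remained whichever array pair was left out.

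**Figure D2:**
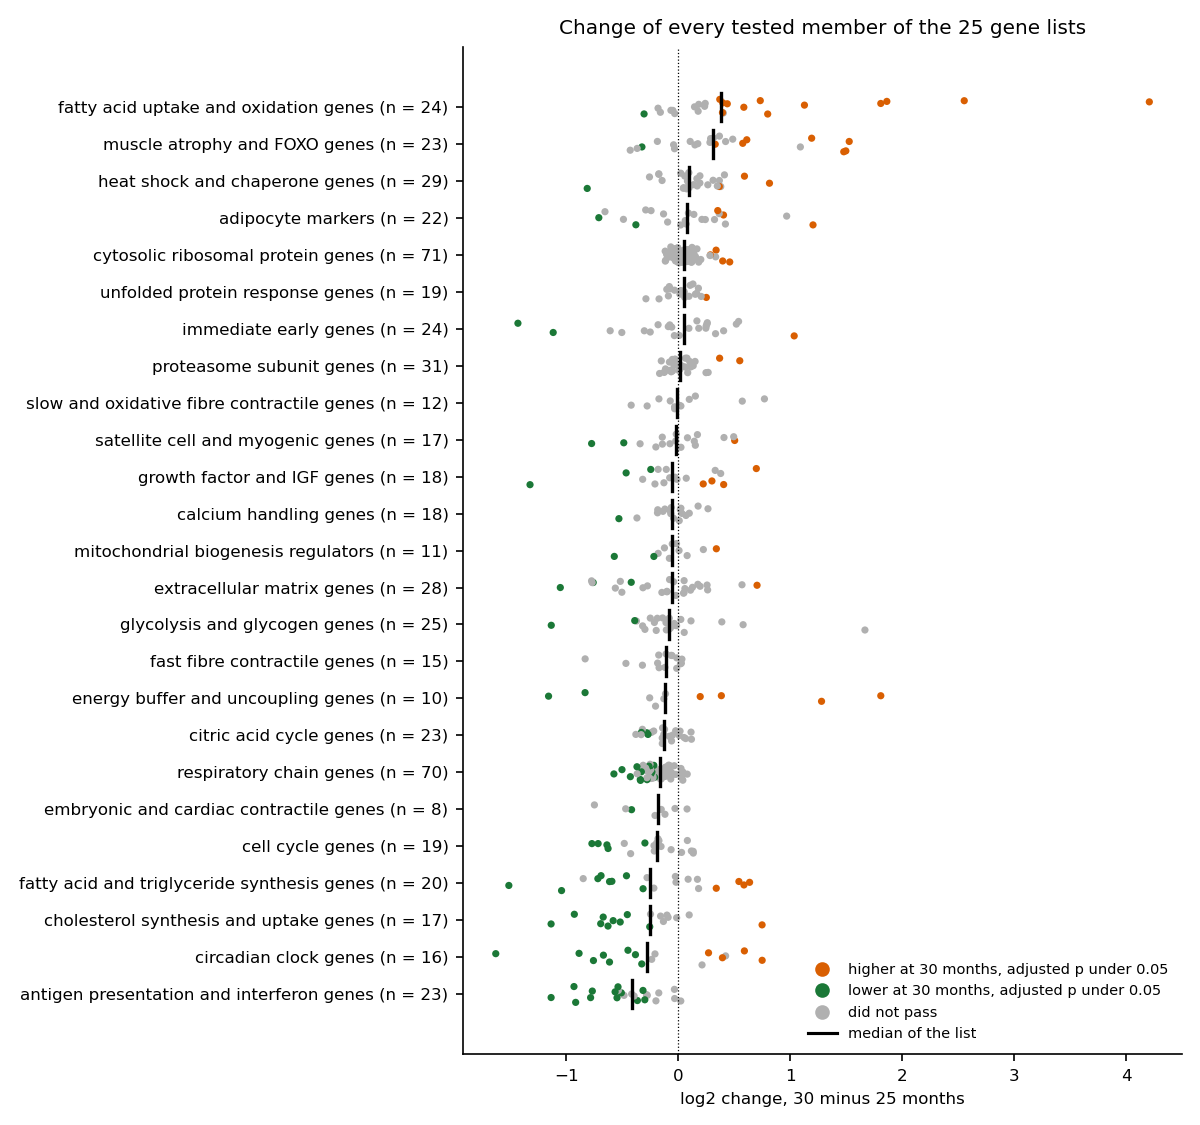
Log2 change from 25 to 30 months (horizontal axis) of every tested member of 25 gene lists (rows), with a point for each gene. Orange points rose, green points fell, grey points did not pass the test, and black bars mark the median of each list. The list of fatty acid uptake and oxidation genes has the highest median, 0.38, and the list of antigen presentation and interferon genes the lowest, -0.42.

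Genes that make and desaturate fatty acids had a lower median than all genes, at -0.25 over 20 measured members of a list of 22. Of these 8 fell (40%) and 4 rose (20%), against 8.85% and 9.06% of all genes. With each channel centred on its median the list stood at 0.56 against 0.63 for all genes. FADS1, the delta-5 desaturase, had the largest fall of the list. It read 10.26 to 12.09 (median 11.33) at 25 months and 9.49 to 10.22 (median 9.71) at 30 months, with no overlap. Its change was -1.51 ± 0.23 (adjusted p = 0.00298), and FADS2, the delta-6 desaturase, changed by -1.04 ± 0.15 (adjusted p = 0.00275), also without overlap. Under median centring they stood at -0.57 and -0.085 and did not pass (adjusted p = 0.121 and 0.798). ACLY, which makes cytosolic acetyl-CoA from citrate, changed by -0.72 ± 0.13, and ACSS2, which makes it from acetate, by -0.69 ± 0.11 (adjusted p = 0.00611 and 0.0031). Both fell in all 8 animals, and both stood at 0.26 and 0.41 under median centring, below the median of all genes there.

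SCD, the delta-9 desaturase of muscle and fat, spread widely among the animals. It read 11.54 to 14.37 (median 12.90) at 25 months and 11.02 to 14.54 (median 12.04) at 30 months. The change of -0.61 ± 0.15 (adjusted p = 0.0205) was negative in 7 of 8 animals, and it missed the threshold without array pair 2, 3 or 4 (adjusted p = 0.102, 0.0816 and 0.0831). FASN, the fatty acid synthase, changed by -0.46 ± 0.13 (adjusted p = 0.037), was also lost without pair 2, 3 or 4 (0.166, 0.115 and 0.161) and on the 4 array pair values (0.0776), and its 4 probes ranged from -0.85 to 0.03. Against these, SREBF1, the gene of the transcription factor SREBP-1 that drives lipogenesis, rose in all 8 animals without overlap, by 0.64 ± 0.08 (adjusted p = 0.00157). GPAT3, an acyltransferase of triglyceride synthesis, was among the largest rises of all at 1.85 ± 0.21 (adjusted p = 0.00083). Of the 8 synthesis genes that fell, 4 were called without pair 2 or 3 and 5 without pair 4. The rises numbered 2 whichever pair was left out.

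Fat cell markers did not move together. LIPE, the hormone-sensitive lipase that releases fatty acids from stored fat, rose by 1.20 ± 0.14 (adjusted p = 0.00083), from a median of 8.52 to 9.73. CIDEA, a lipid droplet protein, changed by -0.71 ± 0.15 (adjusted p = 0.0122), a call lost without array pair 3 (0.0584). ADIPOQ, the adipokine, and FABP4, the fatty acid binding protein of adipocytes, changed by -0.13 ± 0.27 and 0.32 ± 0.32, and neither passed the test. FABP4 read 10.96 to 13.73 at 25 months and 10.39 to 15.08 at 30 months, a range of more than 4 on the log2 scale between animals of the same age. Of 22 adipocyte genes measured 3 rose and 2 fell, with a median of 0.08, shares not far from the 9.06% and 8.85% of all genes. The falls numbered 0 without pair 3 and 1 without pair 4, and the rises 1 without pair 4. The summed level of the 7 measured markers that define adipocytes was 16.17 to 17.23 at 25 months and 16.20 to 17.59 at 30 months. This sum of intensities mostly follows GPD1, which read highest (means 16.49 and 16.20), with CIDEC next (13.2 and 13.1). Its nearly coinciding ranges therefore say little about the other markers. The mean log2 level of the 7 markers changed by -0.38 to 0.97 from animal to animal. In whole muscle, fewer cells of a type and less RNA per cell cannot be told apart.

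Cholesterol synthesis and uptake genes were mostly lower at 30 months relative to the other genes. Of 20 listed, 17 were measured, 9 fell (52.9%) and 1 rose (5.88%), against 8.85% and 9.06% of all genes. The list's median was -0.26 (0.47 under median centring, against 0.63 for all genes). EBP, the sterol isomerase, went from 10.92 to 11.39 (median 11.18) to 10.35 to 10.58 (median 10.51) without overlap, a change of -0.69 ± 0.06 (adjusted p = 0.000378). SREBF2, the gene of the regulator SREBP-2, changed by -0.63 ± 0.11, HMGCS1, the synthase that opens the pathway, by -0.58 ± 0.11, and DHCR7, which closes it, by -0.52 ± 0.09 (adjusted p = 0.00479, 0.00705 and 0.00586). Each of these fell in all 8 animals, and under median centring they stood at 0.42, 0.47 and 0.45 and EBP at 0.30, below the 0.63 of all genes. The exception was FDFT1, squalene synthase, which rose by 0.75 ± 0.15 (adjusted p = 0.0111), a call lost without pair 1 or 2 (0.0774 and 0.0519). The number that fell was 5 without pair 2.

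SLC2A4 and PPP1R3C, genes of glucose uptake and glycogen targeting, fell relative to the other genes. SLC2A4, the gene of the insulin-regulated glucose transporter GLUT4, read 13.67 to 14.40 (median 14.04) at 25 months and 12.48 to 13.48 (median 12.83) at 30 months. It fell in all 8 animals without overlap, by 1.14 ± 0.13 (2.20-fold, adjusted p = 0.000805), but under median centring it stood at -0.0081 (adjusted p = 0.982). PPP1R3C, a subunit that targets protein phosphatase 1 to glycogen, changed by -1.40 ± 0.22 (adjusted p = 0.00361), from a median of 14.97 to 13.54 without overlap, and stood at -0.29 under median centring (adjusted p = 0.566). SLC16A3, a lactate exporter, was the only other member of the glycolysis and glycogen list to be called, at -0.39 ± 0.08 (adjusted p = 0.0113, lost without pair 1 or 2 at 0.074 and 0.0618). The other 23 of the 25 measured members did not pass, and the median was -0.08. The share of the list that fell, 8%, was near the 8.85% of all genes. Without pair 3 the list held 4 falls, and without pair 1 or 2 it held 1. PFKFB3, which makes the activator of phosphofructokinase, had the widest spread of the list, with 10.79 to 16.17 at 25 months and 14.74 to 16.52 at 30 months. Its change ran from -0.28 in 1 animal to 5.40 in another, and the mean of 1.67 ± 0.55 missed the threshold (adjusted p = 0.0655).

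The largest falls were those of the globins, the oxygen carriers of red blood cells. HBA, the alpha chain, read 11.13 to 13.49 (median 11.76) at 25 months and 8.11 to 9.75 (median 8.78) at 30 months. HBB, the adult beta chain, read 9.62 to 11.71 (median 10.19) and 7.06 to 8.48 (median 7.46), and HBG, the fetal-type chain in the array's naming, 10.90 to 13.58 (median 11.79) and 7.64 to 9.66 (median 8.38). No globin overlapped between the ages, and all fell in 8 of 8 animals. The falls were 8.84-fold for HBA, 7.18-fold for HBB and 11.4-fold for HBG (adjusted p = 2.61e-05, 2.61e-05 and 2.37e-05). Over the alternatives run the log2 changes were -3.67 to -2.33 for HBA, -4.70 to -2.42 for HBB and -4.30 to -2.77 for HBG. HBB had low intensities at 30 months, so the size of its fall is the least certain. The globins are close paralogs, so transcripts may bind each other's probes. The short runs shared by the probes printed above do not test this, so the globin falls may not be independent results.

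Other red cell markers gave little beside the globins. AHSP, the alpha globin chaperone, was measured and changed by 0.07 ± 0.07 (adjusted p = 0.532), while HBE1, ALAS2 and SLC4A1 were too dim to be tested. The summed level of the 3 measured markers was 11.71 to 13.89 at 25 months and 9.60 to 10.61 at 30 months. The part of blood content in the other results was not tested. Over all genes 9.06% rose and 8.85% fell, and 1 call among 8 genes is near those shares. Among other markers, 2 of 10 leukocyte genes fell and none rose, 1 of 8 endothelial genes rose, 1 of 8 fibroblast genes fell, and 2 of 6 smooth muscle and pericyte genes rose. None of these calls remained in all 4 cases of an array pair left out, and with pair 1 left out 0 of the leukocyte, endothelial, fibroblast and smooth muscle calls remained. Of the 5 measured markers of Schwann cells and nerve, PMP22 and S100B rose, by 0.65 ± 0.08 and 0.54 ± 0.10 (adjusted p = 0.00154 and 0.00838), and the other 3 did not pass.

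RBM3 and CIRBP, the cold-inducible RNA-binding proteins, fell together. RBM3 read 11.06 to 11.92 (median 11.60) at 25 months and 9.36 to 10.42 (median 9.93) at 30 months, and CIRBP 12.86 to 13.85 (median 13.33) and 11.40 to 12.06 (median 11.96). No animal's 30-month value reached the lowest 25-month value of either gene. The changes were -1.64 ± 0.15 for RBM3 and -1.45 ± 0.13 for CIRBP (adjusted p = 0.000382 and 0.000351), and -0.68 and -0.35 under median centring, where neither passed (adjusted p = 0.142 and 0.488). Among heat shock and chaperone genes, 3 of 29 rose (10.3%) and 1 fell (3.45%), near or below the 9.06% and 8.85% of all genes. HSPH1, a cytosolic HSP110 chaperone, rose by 0.81 ± 0.16 (adjusted p = 0.00991), whereas UNC45B, the chaperone that folds muscle myosin, fell in all 8 animals, by 0.81 ± 0.06 (adjusted p = 0.000139), although it stood at 0.31 under median centring, below the 0.63 of all genes. HSPA1A, the inducible HSP70, did not pass at 0.37 ± 0.23.

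The circadian clock is a loop in which CLOCK and its partner switch on the PER and CRY repressors. Of 16 clock genes measured, 8 fell (50%) and 4 rose (25%), against 8.85% and 9.06% of all genes. The list's median was -0.28 (0.54 under median centring against 0.63 for all genes). PER2 had the largest change. It read 11.69 to 13.06 (median 12.56) at 25 months and 9.95 to 11.56 (median 10.94) at 30 months, fell in all 8 animals without overlap, and changed by -1.63 ± 0.17 (3.10-fold, adjusted p = 0.000538), against -0.57 under median centring (adjusted p = 0.169). PER3 changed by -0.89 ± 0.13, CRY2 by -0.62 ± 0.09 and TEF, a clock output factor, by -0.67 ± 0.09 (adjusted p = 0.00275, 0.00268 and 0.00207), and CRY2 and TEF stood at 0.50 and 0.45 under median centring. PER3 was well above background in 6 of 8 channels at 25 months and in 3 at 30 months. The repressors did not all move one way. NFIL3, a repressor at the sites that TEF activates, rose by 0.75 ± 0.17 (adjusted p = 0.0163), a call lost without array pair 1 or 4 (0.0645 and 0.0576), and PER1 and CRY1 changed by 0.42 ± 0.28 and 0.21 ± 0.11 without passing (adjusted p = 0.319 and 0.201). CLOCK and RORA, on the activating side of the loop, rose by 0.59 ± 0.09 and 0.39 ± 0.06 (adjusted p = 0.00361 and 0.00357). Of the 12 clock calls, 7 remained whichever array pair was left out, the number that fell was 5 without pair 1, and the number that rose was 2 without pair 1 or 4.

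Genes known to respond to glucocorticoids and to FOXO factors in wasting muscle rose in part. Of 23 measured members of that list 7 rose (30.4%) and 1 fell (4.35%), against 9.06% and 8.85% of all genes. Without array pair 1 or 2, 0 fell. The list's median was 0.31, and the mean over the list rose in each animal, by 0.05 to 0.65. CEBPD, a transcription factor of the acute response, read 7.75 to 8.49 (median 8.14) at 25 months and 9.10 to 10.68 (median 9.53) at 30 months, and rose by 1.53 ± 0.21 (adjusted p = 0.00196). CDKN1A, the cyclin kinase inhibitor p21, went from 10.28 to 11.08 (median 10.78) to 11.61 to 12.56 (median 12.19), a rise of 2.82-fold with an SE of 0.19 on the log2 scale (adjusted p = 0.00126). FKBP5, the co-chaperone induced by glucocorticoids, rose by 1.48 ± 0.26 (adjusted p = 0.00615). None of these 3 genes overlapped between the ages. MT2A, a metallothionein, and ZBTB16, a zinc finger factor, rose by 1.19 ± 0.21 and 0.61 ± 0.11 (adjusted p = 0.00607 and 0.00733). The muscle ubiquitin ligases that define atrophy did not pass the test, with FBXO32 (atrogin-1) at 0.28 ± 0.11 and TRIM63 (MuRF1) at 0.31 ± 0.16 (adjusted p = 0.116 and 0.208). KLF15, another target, stood at -0.19 ± 0.09 (adjusted p = 0.193).

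**Figure D3:**
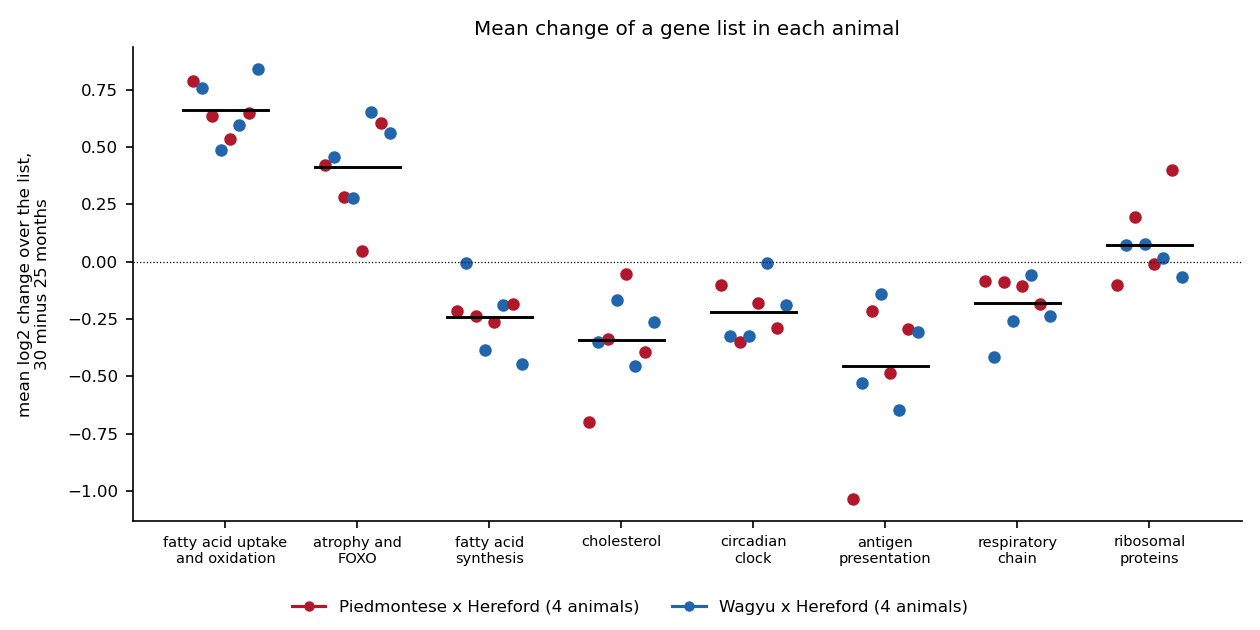
Mean log2 change from 25 to 30 months over the tested members of 8 gene lists (vertical axis, 30 minus 25 months), with 1 point for each of the 8 animals coloured by cross and a black bar for their mean. All 8 animals lie above 0 for fatty acid uptake and oxidation (0.49 to 0.84) and below 0 for antigen presentation (-1.04 to -0.14).

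Antigen presentation and interferon genes fell in 12 of 23 measured members (52.2%, against 8.85% of all genes) and rose in none. The median was -0.42, and 0.24 under median centring against 0.63 for all genes. CIITA, the master regulator of MHC class II, read 10.85 to 12.10 (median 11.32) at 25 months and 9.996 to 10.91 (median 10.12) at 30 months, with a change of -1.14 ± 0.17 (adjusted p = 0.00298). PSMB9, an immunoproteasome subunit, and IRF9, which carries interferon signals, changed by -0.78 ± 0.14 and -0.55 ± 0.09 (adjusted p = 0.00643 and 0.00504). All 3 fell in 8 of 8 animals. Under median centring CIITA stood at -0.15, PSMB9 at -0.002 and IRF9 at 0.40, and none of them was called as lower. CD74, the invariant chain of class II, changed by -0.93 ± 0.23 (adjusted p = 0.0215), and the call was lost without array pair 1, 3 or 4 (0.122, 0.0793 and 0.0799) and on the 4 array pair values (0.0545). B2M, the light chain of class I, changed by 0.02 ± 0.10. The number called was 6 without pair 1, 5 without pair 3 and 8 without pair 4. The summed level of the 10 leukocyte markers was 12.17 to 13.24 at 25 months and 12.04 to 12.94 at 30 months, and its part in this list was not tested.

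Respiratory chain genes shifted a little and in 1 direction among those called. Of 70 measured, 15 fell (21.4%, against 8.85% of all genes) and none rose, with a median of -0.16. Under median centring, however, the list stood at 0.88, above the 0.63 of all genes, so its direction depended on the scaling. UQCRB, a complex III subunit, changed by -0.58 ± 0.08, and NDUFS1 and NDUFA9 of complex I by -0.50 ± 0.09 and -0.34 ± 0.06 (adjusted p = 0.00254, 0.00583 and 0.00433). These 3 calls remained whichever array pair was left out, while the number of falls was 6 without pair 1, 4 without pair 2 and 5 without pair 4. The citric acid cycle list held 3 falls in 23, or 13%, nearer the 8.85% of all genes, and 1 without pair 1 or 2. Its median was -0.13, and 0.88 under median centring. SIRT3, the main deacetylase of mitochondria, changed by -0.57 ± 0.08 (adjusted p = 0.00207), while PPARGC1A, the regulator of mitochondrial biogenesis, changed by -0.12 ± 0.14 and TFAM by -0.18 ± 0.06, and neither passed (adjusted p = 0.566 and 0.0557).

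No contractile gene of adult fibres passed the test. That held for 12 slow and oxidative fibre genes, with a median of -0.01, and for 15 fast fibre genes, with a median of -0.11. MYH7, the slow myosin heavy chain, changed by 0.02 ± 0.13, MYH1, a fast one, by -0.01 ± 0.07, and ACTA1, skeletal actin, by -0.14 ± 0.09. The lowest and highest animal changes of MYH7 were -0.88 and 0.46, so the spread between animals was far wider than the mean change. Among the enzymes that buffer energy in fibres the AMP deaminases parted. AMPD1, the muscle form, changed by -0.83 ± 0.11, and AMPD3, the form of red cells and other tissues, by 1.28 ± 0.19 (adjusted p = 0.00186 and 0.00269). AMPD1 stood at 0.25 under median centring, below the 0.63 of all genes.

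Growth and matrix genes changed singly. MET, the receptor of hepatocyte growth factor that marks satellite cells, changed by -0.78 ± 0.09 (adjusted p = 0.000864), and CDH15, the cadherin of satellite cells, by 0.50 ± 0.08 (adjusted p = 0.00307), each without overlap. IGF2 changed by -0.47 ± 0.09 and IGF1R, the receptor of both insulin-like growth factors, by 0.40 ± 0.07 (adjusted p = 0.00818 and 0.00433). ELN, elastin, rose by 0.70 ± 0.10 (adjusted p = 0.00212), whereas COL1A1, a chain of type I collagen, changed by -1.05 ± 0.32 with an adjusted p of 0.0492 that became 0.144, 0.126 and 0.112 without array pairs 1, 2 and 4. Of 28 matrix genes measured 1 rose (3.57%) and 3 fell (10.7%), against 9.06% and 8.85% of all genes. The falls numbered 0 without pair 1 or 2, 6 without pair 3 and 1 without pair 4. MSTN, the gene of myostatin, the growth inhibitor, changed by -0.49 ± 0.11 (adjusted p = 0.017) and was lost without pair 1, 2 or 4 (0.0519, 0.0893 and 0.0822). MCM5, a helicase subunit of DNA replication, fell in all 8 animals without overlap, by 0.72 ± 0.10 (adjusted p = 0.00186). In the cell cycle list, which holds MCM5, 5 of 19 measured genes fell (26.3%, against 8.85% of all genes) and none rose. In that list only 1 gene was called without pair 1 or without pair 2 and 3 without pair 4. MET, IGF2, COL1A1 and MCM5 stood above 0 and at or below the median of all genes under median centring, MSTN stood at -0.22 (adjusted p = 0.39), and the rise of IGF1R was 0.24 there, also below that median.

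The remaining lists held few calls. Of 71 cytosolic ribosomal protein genes 4 rose and none fell, and of 31 proteasome subunits 2 rose and none fell, with medians of 0.05 and 0.01. Those rises were 5.63% and 6.45% of the lists, below the 9.06% of all genes. The ribosomal rises numbered 0 without pair 2 and 2 without pair 1 or 4. The proteasome rises numbered 1 without pair 2, 3 or 4. Of 24 immediate early genes 1 rose (4.17%) and 2 fell (8.33%), below the 9.06% and 8.85% of all genes. These counts were 0 and 1 without pair 1, and 2 and 1 without pair 2. They were 1 and 3 without pair 3, and 1 and 1 without pair 4. IER3, an early response gene that limits apoptosis, read 12.66 to 13.64 (median 12.84) at 25 months and 11.59 to 12.40 (median 11.82) at 30 months, a change of -1.12 ± 0.10 (adjusted p = 0.000351) without overlap, and -0.029 under median centring (adjusted p = 0.948). FOS did not pass and ranged from a change of -1.64 to 2.90 between animals.

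Outside the lists, KLF11, a Krüppel-like transcription factor, rose by 2.03 ± 0.16 (4.07-fold, adjusted p = 0.000171), from 10.08 to 11.58 at 25 months to 12.47 to 13.07 at 30 months. H2AC6, a replication-linked histone H2A gene, rose by 1.82 ± 0.14, and SLC43A2, a transporter of large neutral amino acids, by 1.65 ± 0.25 (adjusted p = 0.000176 and 0.00323). None of the 3 overlapped between the ages, although the smallest rise of SLC43A2 in an animal was 0.01. A rise in all 8 animals was a condition for naming these 3 genes. CHN1, a GTPase-activating protein for RAC, fell from 11.92 to 13.30 (median 12.47) to 10.48 to 11.72 (median 10.86), by 1.57 ± 0.19 (adjusted p = 0.00126), and stood at -0.51 under median centring (adjusted p = 0.424). The 12 largest rises and 12 largest falls also took in 2 and 2 transcripts for which the files give no gene symbol.

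The array also carried short probes named for human microRNAs, and hsa-mir-133a-1 and hsa-mir-133b, members of a muscle microRNA family, were among the largest falls. Each such probe joins a microRNA part to a 20-base tail that all 212 microRNA probes share, and the microRNA parts of these 2 are printed with the 20 bases that they have in common in capitals.
hsa-mir-133a-1: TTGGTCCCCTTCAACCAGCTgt
hsa-mir-133b: TTGGTCCCCTTCAACCAGCTa
The hsa-mir-133a-1 probe read 11.30 to 12.52 (median 12.19) at 25 months and 9.70 to 10.86 (median 10.27) at 30 months, and that of hsa-mir-133b 10.37 to 11.49 (median 11.24) and 8.93 to 9.97 (median 9.47). Both fell in all 8 animals without overlap, by 1.86 ± 0.19 and 1.69 ± 0.17 (adjusted p = 0.000472 for both). Since the parts differ only after their first 20 bases, these are not 2 independent results. Whether the mature microRNA or a longer transcript gave the signal was not tested.

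The change from 25 to 30 months was next compared between the crosses. The interaction of age and cross gave no call among 12890 genes (limma, smallest adjusted p = 0.889), with 465 genes at an unadjusted p under 0.05. PDK4 rose by 4.10 in the Piedmontese × Hereford and by 4.31 in the Wagyu × Hereford animals, a difference of -0.21 ± 0.58, and HBA fell by 3.37 and 2.92. With 4 animals per cross, a p that missed the threshold does not show that the crosses changed alike. Among the genes with the smallest p, 3 encoded on the mitochondrial genome went in opposite directions. MT-CYTB, a complex III subunit, changed by 0.30 in the Piedmontese × Hereford and -0.32 in the Wagyu × Hereford animals, MT-ND4L by 0.38 and -0.56, and MT-ND1, like it of complex I, by 0.25 and -0.61. The differences of 0.61 ± 0.09, 0.94 ± 0.16 and 0.86 ± 0.16 all had an adjusted p of 0.889. ANGPTL7, an angiopoietin-like secreted protein, changed by 0.69 and -0.57, but only 4 of 8 channels were well above background at either age. NEDD4L, a ubiquitin ligase, rose by 0.36 and 0.98 in the same order, a difference of -0.62 ± 0.11 (adjusted p = 0.889). DNAAF1, an axonemal dynein assembly factor, was not well above background in any channel at 25 months and was so in all 8 at 30 months. The filter on dim probes thus kept it only through its 30-month channels. Its level over both crosses was 1.52-fold higher at 30 months, which is a description without a test. Over the alternatives run its log2 change ran from 0.16 to 2.76.

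The mean level over both ages gave no call between the crosses either (smallest adjusted p = 0.0714, with 979 genes at an unadjusted p under 0.05). MYH7 came nearest on the Wagyu side, with a mean of 16.89 ± 0.11 (SD, n = 4 animals) in the Piedmontese × Hereford and 17.52 ± 0.14 (SD, n = 4 animals) in the Wagyu × Hereford. The 4 and 4 animals did not overlap in this mean, and the difference was -0.63 ± 0.08 (adjusted p = 0.0714). DCTD, a deaminase of nucleotide synthesis, and GPT2, the mitochondrial alanine transaminase, were also lower in the Piedmontese × Hereford, with differences of -0.42 ± 0.06 and -0.55 ± 0.09 (adjusted p = 0.142 and 0.213). JOSD2, a deubiquitinase, and PLEK, pleckstrin of platelets and leukocytes, were higher there, by 0.68 ± 0.08 and 0.79 ± 0.09 (adjusted p = 0.0714 for both). Of the 12 slow fibre genes, MYH7 among them, none stood higher in the Piedmontese × Hereford animals, with a median difference of -0.39. Of the 15 fast fibre genes 12 did, with a median of 0.16, against 0.0068 over all genes. Other lists leaned as far, since 23 of 25 glycolysis and glycogen genes and 2 of 22 adipocyte genes stood higher there (medians 0.14 and -0.47). All these are descriptions without a test.

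**Figure D4:**
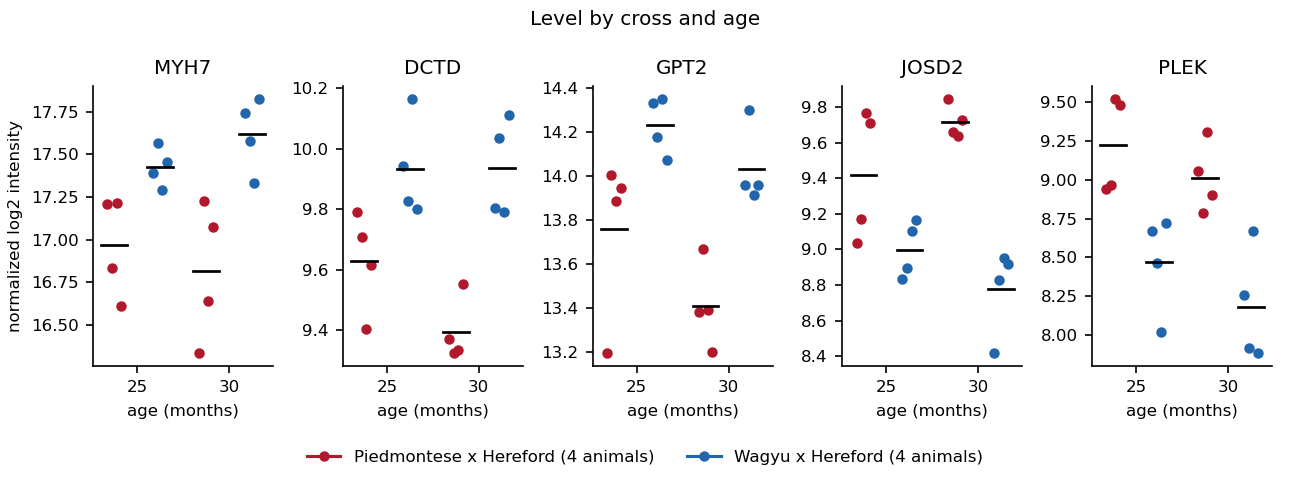
Normalized log2 intensity (vertical axes, scaled to each gene) of 5 genes at 25 and 30 months (horizontal axis), with a point for each of the 4 animals of a cross and a black bar for their mean. The means of MYH7, DCTD and GPT2 are lower and those of JOSD2 and PLEK higher in the Piedmontese × Hereford animals at both ages, and no gene passed the adjusted threshold.

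The same 8 animals, in the same pairs and with dyes exchanged in the same way, were also measured at 3 and 20 months, on other arrays and slides. The change from 25 to 30 months was therefore set against the change from 3 to 20 months within each animal. The difference of the 2 changes was positive in 1295 of 12827 genes (10.1%) and negative in 1073 (8.37%) at an adjusted p under 0.05 (limma). Of these calls 54.7% were positive, and 95.7% under median centring of each channel. Without array pair 3 the 2368 calls became 1419. The change from 3 to 20 months alone gave 1094 rises (8.53%) and 1522 falls (11.9%). Levels at 20 and 25 months also differ by slide and were not tested against each other.

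PDK4 went in opposite directions in the 2 intervals. It read 13.58 to 15.20 (median 14.61) at 3 months and 9.82 to 14.39 (median 11.79) at 20 months, before the values of 25 and 30 months given above. Its change was -2.77 from 3 to 20 months (adjusted p = 0.000987) and 4.21 from 25 to 30 months, and the difference of 6.98 ± 0.48 was the largest (adjusted p = 3.42e-05). FKBP5, CEBPD, UCP3 and MYC shared the pattern. FKBP5 changed by -2.40 and then 1.48, CEBPD by -2.16 and 1.53, UCP3 by -1.27 and 1.81 and MYC, the growth-promoting transcription factor, by -1.93 and 1.03. The differences were 3.88 ± 0.39, 3.68 ± 0.25, 3.08 ± 0.31 and 2.96 ± 0.28 (adjusted p = 0.000225, 3.42e-05, 0.000223 and 0.000138). The rise of MYC from 25 to 30 months was lost without array pair 1 (0.0593). CPT1A likewise changed by -1.07 and 1.71. MLYCD and ANGPTL4 differed between the intervals by 2.09 ± 0.23 and 3.14 ± 0.66 (adjusted p = 0.000319 and 0.00889), but their changes from 3 to 20 months, -0.23 and -0.58, did not pass the test themselves.

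**Figure D5:**
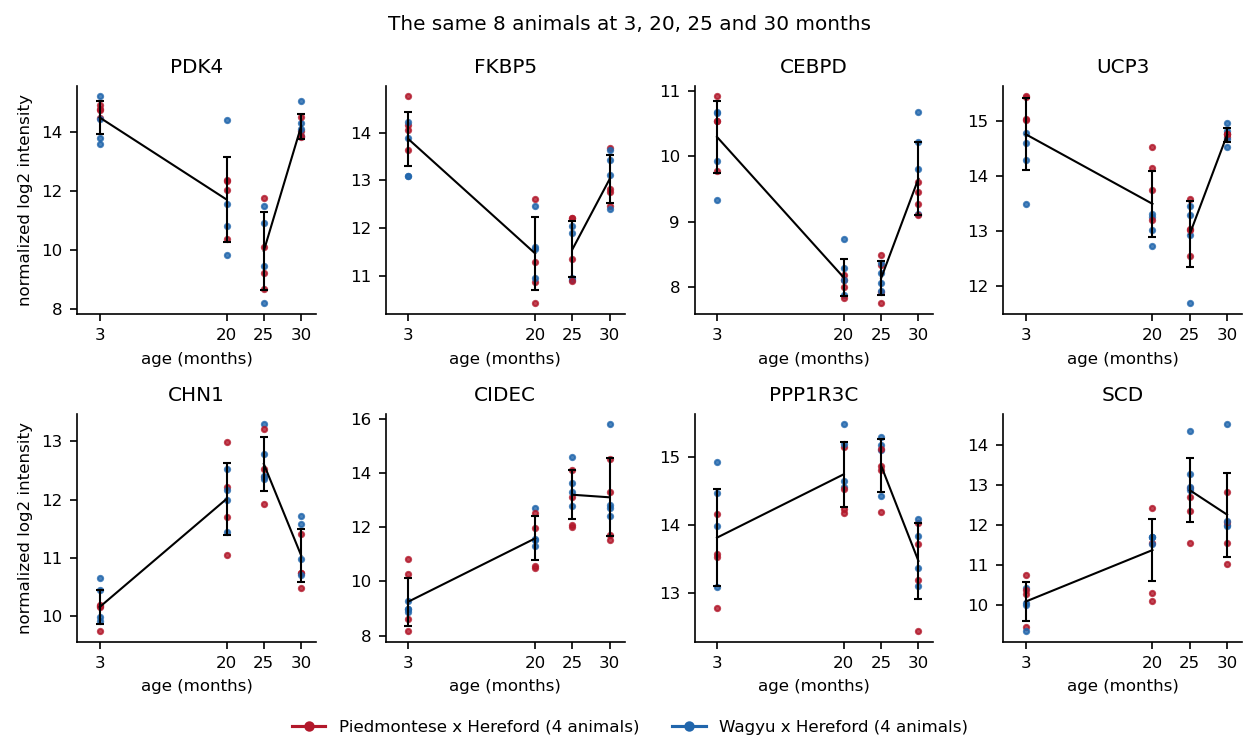
Normalized log2 intensity (vertical axes) of 8 genes in the same 8 animals at 3, 20, 25 and 30 months (horizontal axis). Coloured points are animals and black points with bars are means ± SD, joined from 3 to 20 and from 25 to 30 months. PDK4, FKBP5, CEBPD and UCP3 fall over the first interval and rise over the second, and CHN1 and PPP1R3C do the reverse.

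The reverse pattern was led by CHN1, which changed by 1.85 from 3 to 20 months and -1.57 from 25 to 30 months, a difference of -3.42 ± 0.35 (adjusted p = 0.000245). PPP1R3C changed by 0.93 and -1.40, and FBP1, a fructose bisphosphatase, by 1.71 and -1.34, with differences of -2.33 ± 0.40 and -3.05 ± 0.50 (adjusted p = 0.00315 and 0.00279). The fall of FBP1 from 25 to 30 months was lost without array pair 1, 2 or 3 (0.0723, 0.101 and 0.073), and the PPP1R3C difference was -1.55 under median centring (0.167). CIDEC, which coats the large lipid droplets of fat cells, changed by 2.34 and then -0.10, and SCD by 1.29 and then -0.61, and the differences of -2.44 ± 0.31 and -1.91 ± 0.45 both passed (adjusted p = 0.000708 and 0.0159), that of SCD not without array pair 3 (0.0692) or under median centring (0.214). Globin changes were more negative from 25 to 30 months than from 3 to 20 months. The differences were -2.50 ± 0.58 for HBA, -2.49 ± 0.51 for HBB and -3.16 ± 0.59 for HBG (adjusted p = 0.0136, 0.00749 and 0.00498). Without array pair 4 these were -1.64, -1.92 and -2.30 and still passed, and under median centring they were -1.75, -1.95 and -2.47 and did not (adjusted p = 0.137, 0.0692 and 0.0636). The cold-inducible genes did not differ at the threshold, since CIRBP had changed by -0.89 and RBM3 by -0.96 from 3 to 20 months (adjusted p of the differences = 0.0616 and 0.0589).

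Over all 12827 genes the difference of the intervals was positive in 10.1% and negative in 8.37%. By list, it was positive in 11 and negative in 2 of the 24 fatty acid uptake and oxidation genes. It was positive in 10 and negative in 2 of the 23 atrophy and FOXO genes. It was negative in 9 and positive in 2 of the 20 fatty acid and triglyceride synthesis genes, and negative in 8 and positive in 2 of the 22 adipocyte genes. Matrix genes were positive in 12 of 28 and negative in 1, although only 4 of them had been called between 25 and 30 months. Cholesterol genes were positive in 1 and negative in 1 of 17, below the shares of all genes. Of the 23 antigen presentation and interferon genes 4 were negative and none positive. Of the 70 respiratory chain genes 3 were negative and none positive, also below the shares of all genes.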

How the data were processed

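Longissimus muscle RNA of 8 cattle at 25 and at 30 months was measured on 8 Agilent 2-colour arrays. The deposited files hold the scanner output of Agilent Feature Extraction (version 9.5.1 in the submitters' processing notes) as intensity per spot and channel on a linear scale, not yet normalized, with the authors' mean signal and local background for each. The authors' table of processed values was not used. From the intensities, background was corrected with normexp (offset 50), outlier spots were left out, each array was loess normalized with control spots at weight 0, and the 24 post-natal arrays were brought to a common mean intensity distribution (Aquantile) in limma 3.58.1 under R 4.3.3. The log2 level of each channel was then taken, and spots were averaged per probe. A probe was kept if Feature Extraction marked it as well above background in 8 or more of the 16 channels. This left 13691 of 21475 probes, and their means per gene gave 12890 genes. Of these, 749 had several probes, which disagreed in sign in 215 genes, 7 of them called. Gene symbols are those of the array files, updated through RefSeq names where they matched, and no coordinates are given because the files name no genome build.

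The age test was fitted in limma on 1 difference per animal (30 minus 25 months), with the direction of the dye exchange as covariate and the pair of arrays as a random block (duplicateCorrelation, correlation 0.17), eBayes and Benjamini-Hochberg adjustment over all genes at 0.05, two-sided. Age by cross, cross (mean of both ages per animal) and the difference from the change between 3 and 20 months were fitted in the same way, the last on 12827 genes with values at all 4 ages. Animals pair the ages by their codes in the labels, and the deviations of an animal from the group means correlated across ages at 0.20 to 0.57, against medians of -0.14 to 0.01 with other animals. Replicate numbers stand for array pairs. The fitting code was tested on simulated data with known changes. The number of arrays, 4 per age, limits the precision.

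Genes named were the 12 largest rises and falls among calls with the same direction in every array pair and all 8 animals (for cross, no overlap of 4 and 4 animals), the 6 with the smallest p in each direction where nothing was called, and up to 4 called and 3 defining members of each list. KLF15, ACAA2, B2M and other members given without a call were added to show members that did not pass, after their values were seen. The members and the lists were chosen with earlier results of these data known. Some list members are not reported here. Alternatives to each of these choices were run, with arrays left out in turn.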

Additional observations from a re-analysis of the deposited data

Results flagged for a closer look

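In 120 named genes the change of the 8 animals from 25 to 30 months was searched for an animal that stood apart from the others, by the gap to its nearest neighbour relative to the whole range (Dixon's ratio at the 95% level), and 7 were found, where chance gives about 5% of the genes. The UQCRB change was -1.22 in 1 Piedmontese × Hereford animal of array pair 4, against -0.65 in the next and -0.33 at the other end. The BOLA-DMB change was -2.43 in the Piedmontese × Hereford animal of pair 1, against -1.10 and -0.40, and in the same animal the PSMA7 change was -0.22, against 0.33 and 0.79. The TOP2A change was -2.10 in the Wagyu × Hereford animal of pair 3, against -1.10 and -0.41. The TAGLN change was -0.28 in the Piedmontese × Hereford animal of pair 2, against 0.38 and 0.75. The FABP3 change was -0.24 in the Piedmontese × Hereford animal of pair 4, against 0.59 and 1.17, and the IRF9 change was -1.15 in that of pair 1, against -0.55 and -0.30. BOLA-DMB encodes a class II chaperone, PSMA7 a proteasome subunit, TOP2A a DNA topoisomerase and TAGLN a smooth muscle actin-binding protein.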

How the results depend on the processing

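The count of 2309 age calls became 5493 with each channel centred on its median, 298 on the first slide alone and 32 on the second alone (2 array pairs each, fitted without the random block), and 1049 to 1754 with 1 array pair left out. Every one of the 2309 genes that was tested kept its direction under the alternatives run except median centring, where 1437 did, and the brightest probe per gene, where 2308 did. These genes had been called on the same arrays, so a kept direction is no independent check. The stricter filter of all 16 channels tested 2091 of them and that of at least 24 of the 96 channels 2308. On the 4 array pair values 1847 genes were called, 1658 of the 2309 among them. Without the replicate block, that is with channels of the 2 ages compared without matching animals, the age calls were 927 and the interval calls 1345. The 2368 interval calls became 979 and 1350 on each slide alone, 1666 under median centring (95.7% positive) and 1419 to 1701 with 1 array pair left out. Age by cross gave 2 calls on the second slide alone and 0 to 18 with 1 array pair left out, the 18 without pair 3. Cross gave 1 call with background subtraction, 2 with the processed signals of Feature Extraction, 1 with quantile normalization and 0 to 1 with 1 array pair left out, the 1 without pair 2.

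Under median centring, which moved the median of all genes by 0.63, 39 of 120 named genes changed sign, 31 of them still lying below that median, and 1768 of 2309 called genes kept their sign relative to it. Their changes there were 0.22 for SLC16A3, 0.31 for CIDEA, 0.69 for CFD, 0.26 for ACLY, 0.41 for ACSS2, 0.30 for EBP, 0.80 for SDHD, 0.80 for CS, 0.81 for SDHC, 0.061 for UQCRB, 0.57 for NDUFS1, 0.62 for ATP5MC1, 0.69 for COX7A2, 0.56 for SIRT3, 0.59 for TFB1M, 0.065 for COL1A1, 0.36 for FN1, 0.66 for COL15A1, 0.29 for MET, 0.63 for IGF2, 0.31 for UNC45B, 0.32 for BHLHE40, 0.0033 for CD74, 0.14 for BOLA-DMB, 0.28 for MCM5, 0.36 for CCND1, 0.47 for ORAI1, 0.25 for AMPD1, 0.23 for PTPRC, 0.42 for SREBF2, 0.47 for HMGCS1, 0.45 for DHCR7, 0.42 for SCD, 0.058 for FASN, 0.50 for CRY2, 0.45 for TEF, 0.40 for IRF9, 0.74 for NDUFA9 and 0.67 for DECR1. That scaling did not move all genes alike, so a place below or above its median does not show a relative fall or rise. The cause of the sign changes was not tested. Of 2513 values of the named genes over the alternatives, 2053 kept sign and call, 421 kept the sign and missed the threshold, and 39 reversed. For the 24 genes named for the interval, 486 values kept sign and call and 17 kept the sign and missed the threshold. Dim probes limit the low genes, since 52.9% to 69.5% of spots were well above background.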
